A study of Mus musculus with 6 samples.

Results

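The messenger RNAs of 50 mouse genes that act in G2 phase and mitosis were followed in TRAMP-C2 prostate cancer cells exposed to a platinum drug. The genes were chosen by name for their known roles, with earlier results of these data known, and they cover entry into mitosis (10 genes), the spindle checkpoint and anaphase (10), the kinetochore and the chromosomal passenger complex (12), the spindle (10), the midzone and cytokinesis (6) and mitotic chromosomes (2). All 50 were found among the 54446 genes of the deposited table by stable gene identifier, and all 50 were among the 14956 genes tested, which reached 10 counts in 2 or more libraries. The lowest mean in any group was 293 normalised counts, for Pttg1 in control cells.

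TRAMP-C2 is an established line from a prostate tumour of the TRAMP transgenic mouse, here of male C57BL/6 origin. Cells were left untreated (agent labelled as control, none), given 2 µM oxaliplatin or given 2 µM cisplatin, and poly(A) RNA was sequenced after 24 h, with 2 libraries in each of the 3 groups. Both drugs are square planar platinum compounds that form DNA adducts. Oxaliplatin keeps a diaminocyclohexane carrier ligand and loses an oxalate, whereas cisplatin keeps its ammine ligands and loses chlorides. The labels number the libraries of a group without saying whether they came from separate cultures, so the p-values below measure the spread between these libraries, which may be technical. A single line was used, and the drug groups were both compared with the same 2 control libraries.

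Cyclin B and Cdk1 form the kinase that drives a cell from G2 into mitosis, Cdc25 phosphatases switch it on, and Polo and Aurora kinases act with it on centrosomes and chromosomes. Kinetochores then attach chromosomes to the spindle, the checkpoint proteins hold back the anaphase-promoting complex (APC/C) until attachment is complete, and a midzone of antiparallel microtubules places the cleavage furrow. Transcription of most of these genes peaks in G2 and mitosis, driven by the MuvB complex with B-Myb (Mybl2) and FoxM1 acting on short promoter elements, and arrest through p53 and p21 (Cdkn1a) is known to lower it. In bulk RNA, fewer cells in G2 and mitosis and less transcript per cell cannot be told apart.

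Library totals ran from 21345312 to 24041767 expected counts, and the libraries of a group differed by more than sampling noise. Each was counted as its own sample, which is an assumption, since technical repeats can also differ by more than sampling noise. Of the prostate and epithelial markers Krt19 and Cdh1 were present at 356 or more counts in every library, Krt8, Krt18 and Krt14 lay between 78.8 and 173 counts, Trp63 between 3 and 19, and Epcam, Hoxb13 and Krt5 between 0 and 3. Of these, Krt14 was higher after oxaliplatin (0.68 on the log2 scale), and Krt19 and Cdh1 were higher after cisplatin (0.29 and 0.53), in the DESeq2 test at an adjusted p under 0.05. The fibroblast-associated collagen genes Col1a1 and Col1a2 reached 71376 to 124765 counts. Of 8 fibroblast markers, 1 rose and 4 fell with each drug. Of all tested genes 10.7% rose and 9.50% fell after oxaliplatin, and 15.7% rose and 12.4% fell after cisplatin. Summed normalised counts of the fibroblast markers were 275587 to 291668 in control, 229034 to 229645 after oxaliplatin and 214689 to 217152 after cisplatin. Among 7 immune markers Cd68 was at 30 to 51 counts and the other 6 were at 0 to 3, and of 4 endothelial markers only Kdr, at 21 to 64 counts, exceeded 8. Summed normalised counts of the immune markers were 32.5 to 44.6 in control, 32.7 to 33.4 after oxaliplatin and 54.2 to 54.9 after cisplatin, and those of the endothelial markers 23.6 to 28.02, 51.2 to 62.2 and 54.2 to 71.6. Kdr was called higher with both drugs (1.20 and 1.31) and Cd68 with neither. The part of these shifts in the values of the mitotic genes was not tested.

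Together the 50 genes took 0.653% and 0.67% of all counts in the control libraries, 0.722% and 0.724% after oxaliplatin and 0.65% and 0.655% after cisplatin. The oxaliplatin libraries were thus the highest, and of the cisplatin libraries 1 lay within the control range and the other just below it. Per kilobase of merged exon in control cells, the genes ran from 78.9 normalised counts for Kif18a, a kinesin that damps chromosome movement, to 1958 for Cdc20, the activator of the APC/C, with a median of 413. On the same per-kilobase scale Top2a stood at 1488, Kif20a at 1444, Ccnb1 at 1160.4 and Cenpf at 154.

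After oxaliplatin 23 of the 50 genes rose and none fell in the DESeq2 fit over all genes (adjusted p under 0.05, a call in what follows), where 10.7% of all tested genes were called higher, 9.50% lower and 20.2% in either direction. All 6 midzone and cytokinesis genes were among them, with Prc1, Ect2 and Anln, and so were the mitotic entry genes Ccnb1, Cdc25b, Aurka, Nek2 and Foxm1. Called changes were small, from 0.14 to 0.43 on the log2 scale with a median of 0.26, and the median over all 50 genes was 0.15 beside -0.0029 over all tested genes. In control cells the 50 genes had a median of 2312.5 normalised counts, and 46 reached 1000 or more. All tested genes include far scarcer ones, and 2900 without an adjusted p count as uncalled. Small changes are more readily called at high counts, so shares called in this and the other lists are not matched for abundance. The part of abundance in them was not tested. Both oxaliplatin libraries lay above both control libraries for 37 genes and below them for 5, where 32.1% of all tested genes lay above, 32.7% below and 64.8% in either direction without overlap. At an unadjusted p under 0.05 the count was 30, where 28.2% of all tested genes passed, and edgeR called 29 higher and 1 (Cdc25c) lower, where it called 30.9% of all tested genes. The count was 15 without control replicate 1, 14 of them higher and 1 (Mki67) lower, beside 11.6% of all tested genes. It was 12 without oxaliplatin replicate 1 (8.22% of all tested genes) and 10 without oxaliplatin replicate 2 (9.39%), all of them higher.

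After cisplatin 16 of the 50 genes rose and 5 fell (DESeq2, adjusted p under 0.05), against 15.7% of all tested genes called higher, 12.4% lower and 28.1% in either direction. Scaling by library totals turned this split to 9 higher and 12 lower, with 28.1% of all tested genes called. That scaling shifted the median of all genes by -0.048, and their higher and lower shares under it were not counted. The splits under it, here and by role below, are therefore not read as particular to the list. The genes that fell were Plk1, Aurkb, Cenpf, Aspm and Top2a, a kinase of mitotic entry, the passenger complex kinase, a kinetochore protein, a spindle pole protein and DNA topoisomerase II alpha. Those that rose included Kif20a, Cdca8, Sgo1, Dlgap5, Birc5 and Foxm1. The median over the 50 genes was 0.024 on the log2 scale, beside -0.00083 over all tested genes, so that the list as a whole stayed near the centre while its members spread from -0.54 for Aspm to 0.51 for Kif20a. Cisplatin libraries lay above control for 21 genes and below for 18, where 34.6% of all tested genes lay above, 34.8% below and 69.4% in either direction without overlap. Leaving out 1 library brought the count of 21 to 11 without cisplatin replicate 1 (14.3% of all tested genes called), 9 without cisplatin replicate 2 (14.1%), 13 without control replicate 1 (18.3%), 10 without control replicate 2 (15.6%) and 13 without oxaliplatin replicate 1 or oxaliplatin replicate 2 (20.4% each).

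Set side by side, 10 genes were called higher with both drugs, 12 higher with oxaliplatin alone, 6 higher with cisplatin alone, 4 lower with cisplatin alone and 17 with neither. Top2a was the 1 gene called in opposite directions. Of all tested genes 20.2% were called with oxaliplatin and 28.1% with cisplatin. Their shares in these joint classes were not counted, so no class is read as particular to the list. The classes share the control libraries. A gene called with 1 drug and not with the other is not thereby shown to differ between them. That difference has its own test. No gene of the list reached a log2 fold change of 1 in either direction with either drug.

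**Figure D1:**
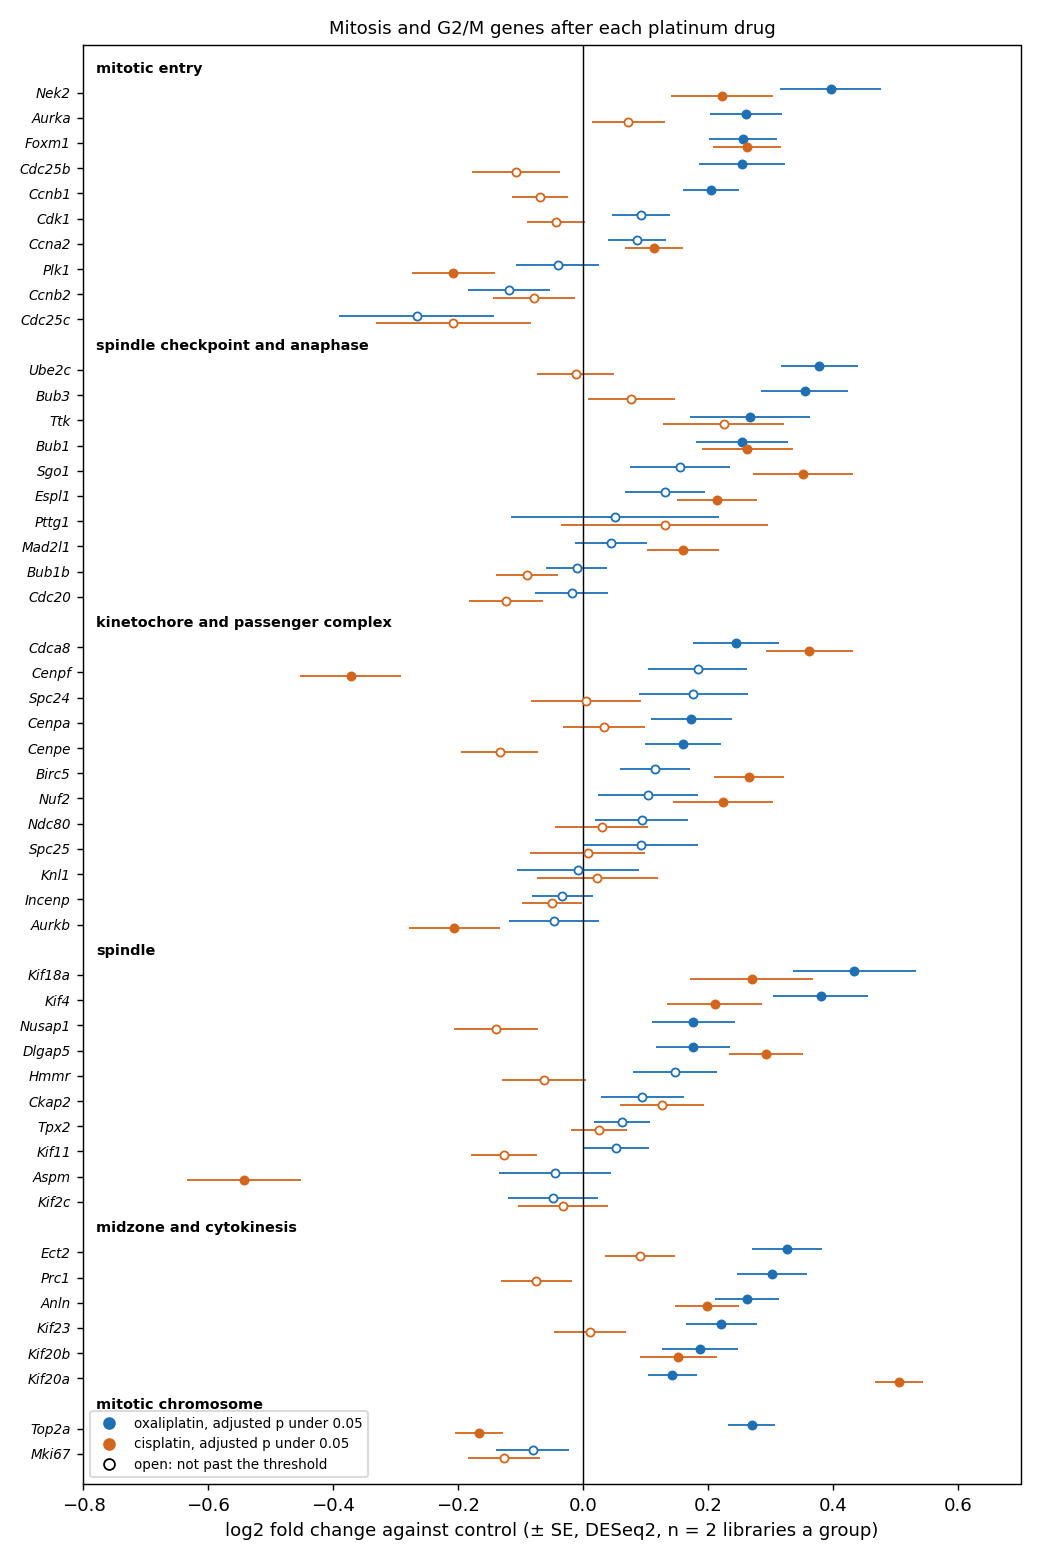
Log2 fold change against control (x axis) for each of the 50 genes, grouped by role, after oxaliplatin (blue) and cisplatin (orange), with the standard error as a bar and filled points for DESeq2 adjusted p under 0.05 (n = 2 libraries a group). Filled blue points all lie to the right of 0, whereas 16 filled orange points lie to the right and 5 to the left, Aspm furthest at -0.54.

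Promoter sequence was examined because these genes are known to share elements bound by MuvB and NF-Y. RefSeq windows of GRCm38.p6, running from 250 bases before to 50 bases after the transcription start, were matched to 41 of the 50 genes. The letters searched on both strands were TTTGAA, the cell cycle genes homology region (CHR), its variant TTTAAA, and CCAAT, the NF-Y box. The upstream 250 bases of a cyclin, a pair of mitotic kinases and an APC/C activator are printed, 5′ to 3′ on the strand of the gene, with matches to any of the 3 motifs in capitals (ATTGG is CCAAT on the other strand).
Ccnb1: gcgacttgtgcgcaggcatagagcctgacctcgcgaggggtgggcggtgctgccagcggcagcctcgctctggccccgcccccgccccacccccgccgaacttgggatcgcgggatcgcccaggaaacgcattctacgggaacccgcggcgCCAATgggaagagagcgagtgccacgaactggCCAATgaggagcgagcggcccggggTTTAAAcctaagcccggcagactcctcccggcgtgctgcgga
Plk1: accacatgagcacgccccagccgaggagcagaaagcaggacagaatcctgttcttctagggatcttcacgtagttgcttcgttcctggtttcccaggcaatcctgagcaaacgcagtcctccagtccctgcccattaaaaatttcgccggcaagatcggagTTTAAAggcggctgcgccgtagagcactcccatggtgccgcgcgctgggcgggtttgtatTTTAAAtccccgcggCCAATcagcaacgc
Cdk1: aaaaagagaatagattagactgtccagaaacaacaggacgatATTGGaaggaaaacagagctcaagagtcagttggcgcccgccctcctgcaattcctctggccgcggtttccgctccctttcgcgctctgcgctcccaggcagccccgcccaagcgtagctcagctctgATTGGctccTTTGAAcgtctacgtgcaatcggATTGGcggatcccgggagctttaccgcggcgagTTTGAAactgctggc
Cdc20: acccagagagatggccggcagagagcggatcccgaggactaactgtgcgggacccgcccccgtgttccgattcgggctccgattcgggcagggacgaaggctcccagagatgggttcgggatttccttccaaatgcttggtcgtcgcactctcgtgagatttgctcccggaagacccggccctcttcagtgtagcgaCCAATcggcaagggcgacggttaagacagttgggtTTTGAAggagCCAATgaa
The stretches lie at chr13:100786487-100786736, minus strand (Ccnb1), chr7:122159185-122159434, plus strand (Plk1), chr10:69352913-69353162, minus strand (Cdk1) and chr4:118437344-118437593, minus strand (Cdc20). Ccnb1 showed 2 NF-Y boxes followed by the variant TTTAAA, Cdk1 showed 3 NF-Y boxes and 2 CHR matches, and Cdc20 showed an NF-Y box on either side of a CHR match. Plk1 showed 2 TTTAAA matches and an NF-Y box, with a further TTTGAA match just after the start. Ccnb1 rose after oxaliplatin and Plk1 fell after cisplatin, while Cdk1 and Cdc20 passed the test against control with neither drug.

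Over the 41 matched genes, TTTGAA was present in 29 (70.7%) beside 20.2% of all 27018 genes with a window of the same length, and TTTAAA in 10 (24.4%) beside 14.9%. At least 1 CCAAT was present in 30 (73.2%) beside 41.1%, at least 2 in 20 (48.8%) beside 13.3%, and TTTGAA together with CCAAT in 24 (58.5%) beside 7.97%. In the last 150 bases of the window the joint share was 51.2% beside 2.22%. Of 126 matches in the 44 windows of these genes, 2 shared a base with a match to another motif. Bub3, Ect2 and Prc1 each had 2 overlapping windows, so a site lying in both was counted in each. A match of letters is a description of the sequence and shows no binding in these cells.

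**Figure D2:**
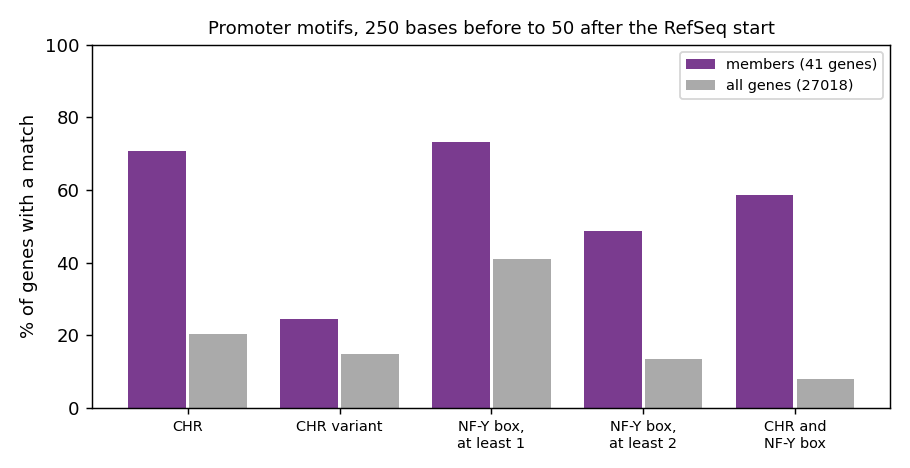
Percent of genes (y axis) whose promoter window holds each motif, for the 41 matched mitosis and G2/M genes (purple) and all 27018 genes with a window (grey). The cell cycle genes homology region (CHR) together with an NF-Y box was found in 58.5% of the first and 7.97% of the second.

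Among the 10 genes of mitotic entry, 5 rose after oxaliplatin, and 3 rose and 1 fell after cisplatin (1 and 2 when scaled by library totals). The share called was 50% and 40%, beside 20.2% and 28.1% of all tested genes. Ccnb1, cyclin B1, the activating partner of Cdk1, read 4893 and 4894 normalised counts in the control libraries, 5575 and 5698 after oxaliplatin and 4609 and 4719 after cisplatin. The oxaliplatin libraries stood above all others and the cisplatin libraries below all others, with no overlap. For Ccnb1 the log2 fold change was 0.20 ± 0.045 (SE, adjusted p = 6.52e-05) for oxaliplatin and -0.069 ± 0.045 (SE, adjusted p = 0.256) for cisplatin. Cdk1, the mitotic kinase itself, followed the same order with 5431 and 5236 normalised counts in the control libraries, 5605 and 5769 after oxaliplatin and 5166 and 5184 after cisplatin. Neither drug group overlapped control, yet for Cdk1 the log2 fold changes of 0.092 ± 0.046 (SE, adjusted p = 0.131) for oxaliplatin and -0.043 ± 0.046 (SE, adjusted p = 0.523) for cisplatin both missed the threshold. Cdc25b, a phosphatase that activates Cdk1, read 1660.3 and 1670.0 normalised counts in the control libraries, 1978 and 1993 after oxaliplatin and 1509 and 1583 after cisplatin. Again oxaliplatin was highest and cisplatin lowest, with log2 fold changes for Cdc25b of 0.25 ± 0.069 (SE, adjusted p = 0.00179) for oxaliplatin and -0.11 ± 0.07 (SE, adjusted p = 0.253) for cisplatin.

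Of the other kinases of mitotic entry, Plk1, the Polo kinase of centrosomes, kinetochores and midzone, read 2171 and 2089 normalised counts in the control libraries, 2108 and 2030.4 after oxaliplatin and 1817 and 1872 after cisplatin. Oxaliplatin overlapped control and both cisplatin libraries were lower. For Plk1 the log2 fold change was -0.041 ± 0.066 (SE, adjusted p = 0.725) for oxaliplatin and -0.21 ± 0.067 (SE, adjusted p = 0.00856) for cisplatin. Aurka, the Aurora kinase of the spindle poles, read 2296 and 2317 normalised counts in the control libraries, 2769 and 2757 after oxaliplatin and 2449 and 2402 after cisplatin. Nek2, a kinase that helps centrosomes part, read 1149 and 1208 normalised counts in the control libraries, 1515 and 1587 after oxaliplatin and 1339 and 1411 after cisplatin. For both genes oxaliplatin was highest, cisplatin intermediate and control lowest, without overlap. For Aurka the log2 fold change was 0.26 ± 0.058 (SE, adjusted p = 7.94e-05) for oxaliplatin and 0.072 ± 0.058 (SE, adjusted p = 0.379) for cisplatin. Nek2 rose by 0.40 ± 0.081 (SE, adjusted p = 1.35e-05) for oxaliplatin and 0.22 ± 0.081 (SE, adjusted p = 0.0235) for cisplatin.

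Foxm1, the forkhead factor that drives G2/M transcription, read 3047 and 3104 normalised counts in the control libraries, 3667 and 3679 after oxaliplatin and 3599 and 3781 after cisplatin. Both drug groups were above control, and the oxaliplatin libraries fell within the cisplatin range. Foxm1 rose by 0.26 ± 0.054 (SE, adjusted p = 2.7e-05) for oxaliplatin and 0.26 ± 0.054 (SE, adjusted p = 1.27e-05) for cisplatin. Of the other genes of entry, Ccna2 (cyclin A2) was called higher after cisplatin at 0.11 ± 0.047 (SE, adjusted p = 0.0495), the highest adjusted p of any call, and lost that call under 15 of 16 alternative fits (a minimum fold change, which left no call in the list, is not among the 16). Ccnb2 (cyclin B2) and Cdc25c passed with neither drug, at -0.12 and -0.27 for oxaliplatin and -0.078 and -0.21 for cisplatin. Without single libraries the oxaliplatin calls of Ccnb1 (adjusted p up to 0.0614) and Cdc25b (up to 0.122) were lost, as were the cisplatin calls of Plk1 (up to 0.197) and Nek2 (up to 0.313). Scaling by library totals also ended the cisplatin call of Nek2 and called Ccnb1 lower.

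In the spindle checkpoint and anaphase group, 4 of 10 genes rose after oxaliplatin, 4 rose after cisplatin and none fell (3 rose and 2 fell after cisplatin when scaled by library totals). With each drug 40% were called, beside 20.2% (oxaliplatin) and 28.1% (cisplatin) of all tested genes. Ube2c, the ubiquitin-conjugating enzyme that works with the APC/C, read 2583 and 2436 normalised counts in the control libraries, 3213 and 3309.6 after oxaliplatin and 2437 and 2539.7 after cisplatin. The oxaliplatin libraries stood apart, and the cisplatin libraries lay within the control range. For Ube2c the log2 fold change was 0.38 ± 0.061 (SE, adjusted p = 1.86e-08) for oxaliplatin and -0.012 ± 0.062 (SE, adjusted p = 0.914) for cisplatin. Bub3, a checkpoint protein at kinetochores, read 2429 and 2175 normalised counts in the control libraries, 2936 and 2949 after oxaliplatin and 2456 and 2398 after cisplatin. Here too oxaliplatin stood alone at the top while 1 of the cisplatin libraries fell between the controls, with log2 fold changes for Bub3 of 0.35 ± 0.069 (SE, adjusted p = 4.48e-06) for oxaliplatin and 0.077 ± 0.07 (SE, adjusted p = 0.443) for cisplatin. Bub1, the checkpoint kinase that recruits other checkpoint proteins, read 1682 and 1592 normalised counts in the control libraries, 1947 and 1959 after oxaliplatin and 1891 and 2037 after cisplatin. Both drug groups exceeded control and overlapped each other, and Bub1 rose by 0.25 ± 0.073 (SE, adjusted p = 0.0035) for oxaliplatin and 0.26 ± 0.073 (SE, adjusted p = 0.00196) for cisplatin.

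Espl1 and Sgo1 act on opposite sides of sister chromatid cohesion, as separase, which cleaves cohesin, and as shugoshin, which protects it. Espl1 read 1925 and 1913 normalised counts in the control libraries, 2120.4 and 2081 after oxaliplatin and 2186 and 2269 after cisplatin. Sgo1 read 1128 and 1122 normalised counts in the control libraries, 1252 and 1254 after oxaliplatin and 1473 and 1398 after cisplatin. In both genes control was lowest, oxaliplatin next and cisplatin highest, without overlap. For Espl1 the log2 fold change was 0.13 ± 0.064 (SE, adjusted p = 0.128) for oxaliplatin and 0.21 ± 0.064 (SE, adjusted p = 0.00408) for cisplatin. For Sgo1 it was 0.16 ± 0.08 (SE, adjusted p = 0.153) for oxaliplatin and 0.35 ± 0.08 (SE, adjusted p = 9.06e-05) for cisplatin. Bub1b, the checkpoint protein BubR1, read 4292 and 4390.2 normalised counts in the control libraries, 4250.1 and 4369.8 after oxaliplatin and 4029 and 4129 after cisplatin. Its inhibited target Cdc20 read 3804 and 3510.4 normalised counts in the control libraries, 3563 and 3657 after oxaliplatin and 3402 and 3311 after cisplatin. For both, oxaliplatin overlapped control and cisplatin was below every other library, but neither passed the test. For Bub1b the values were -0.011 ± 0.049 (SE, adjusted p = 0.917) for oxaliplatin and -0.09 ± 0.049 (SE, adjusted p = 0.157) for cisplatin. For Cdc20 they were -0.019 ± 0.059 (SE, adjusted p = 0.873) for oxaliplatin and -0.12 ± 0.059 (SE, adjusted p = 0.0992) for cisplatin. Ttk, the Mps1 kinase, was the other call after oxaliplatin at 0.27 ± 0.10 (SE, adjusted p = 0.0261), Mad2l1, the checkpoint protein Mad2, the other call after cisplatin at 0.16 ± 0.058 (SE, adjusted p = 0.0216), and Pttg1, securin, had the widest intervals of the list, -0.28 to 0.38 for oxaliplatin and -0.20 to 0.46 for cisplatin. Leaving out single libraries ended the calls of Bub1 with either drug (adjusted p up to 0.124 and 0.162), Ttk (up to 0.327), Espl1 (up to 0.178) and Mad2l1 (up to 0.266), and scaling by library totals ended that of Mad2l1 and called Bub1b and Cdc20 lower after cisplatin.

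The 12 kinetochore and passenger complex genes gave 3 rises after oxaliplatin, and 3 rises and 2 falls after cisplatin (2 and 3 when scaled by library totals). These were 25% and 41.7% of the role, the first near the 20.2% of all tested genes called with oxaliplatin, beside 28.1% with cisplatin. Cenpf, a large kinetochore protein of late G2, read 2223 and 2515 normalised counts in the control libraries, 2634 and 2748 after oxaliplatin and 1754 and 1908 after cisplatin. Both cisplatin libraries were below control and both oxaliplatin libraries above it. For Cenpf the log2 fold change was 0.18 ± 0.08 (SE, adjusted p = 0.0762) for oxaliplatin and -0.37 ± 0.081 (SE, adjusted p = 4e-05) for cisplatin, so only the fall after cisplatin passed. Cenpe, the kinetochore kinesin that carries chromosomes to the metaphase plate, read 3432 and 3756 normalised counts in the control libraries, 4075 and 3955 after oxaliplatin and 3223 and 3329.6 after cisplatin. The order was the same, and the rise after oxaliplatin was the change that passed, with log2 fold changes for Cenpe of 0.16 ± 0.061 (SE, adjusted p = 0.0364) for oxaliplatin and -0.13 ± 0.061 (SE, adjusted p = 0.0816) for cisplatin. Cenpa, the histone H3 variant that marks centromeres, read 2439.6 and 2311 normalised counts in the control libraries, 2600.4 and 2757 after oxaliplatin and 2476 and 2385 after cisplatin. Oxaliplatin was above the other libraries and cisplatin overlapped control, with log2 fold changes for Cenpa of 0.17 ± 0.065 (SE, adjusted p = 0.035) for oxaliplatin and 0.033 ± 0.066 (SE, adjusted p = 0.758) for cisplatin.

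Of the passenger complex, which corrects wrong attachments, Cdca8 (borealin) read 2017 and 1838 normalised counts in the control libraries, 2249 and 2318 after oxaliplatin and 2474 and 2479 after cisplatin. Birc5 (survivin) read 2620.2 and 2549 normalised counts in the control libraries, 2816 and 2784 after oxaliplatin and 3087 and 3125 after cisplatin. Cisplatin was highest, oxaliplatin intermediate and control lowest for both. Cdca8 rose by 0.24 ± 0.069 (SE, adjusted p = 0.00299) for oxaliplatin and 0.36 ± 0.069 (SE, adjusted p = 2.24e-06) for cisplatin, while for Birc5 the values were 0.12 ± 0.056 (SE, adjusted p = 0.121) for oxaliplatin and 0.27 ± 0.056 (SE, adjusted p = 2.04e-05) for cisplatin. The kinase of the same complex, Aurkb, went the other way after cisplatin at -0.21 ± 0.073 (SE, adjusted p = 0.0178) and was at -0.047 ± 0.072 after oxaliplatin. The scaffold Incenp was at -0.034 ± 0.049 after oxaliplatin and -0.05 ± 0.049 after cisplatin, called with neither. Of the microtubule-binding Ndc80 complex and its anchor, Nuf2 rose after cisplatin at 0.22 ± 0.08 (SE, adjusted p = 0.019), and Ndc80, Spc24, Spc25 and Knl1 passed with neither drug, with values from -0.0082 (Knl1) to 0.18 (Spc24) after oxaliplatin and 0.0043 (Spc24) to 0.029 (Ndc80) after cisplatin. Calls lost without single libraries were those of Cenpe (adjusted p up to 0.398), Cenpa (up to 0.461) and Cdca8 (up to 0.154) after oxaliplatin, and of Aurkb (up to 0.268) and Nuf2 (up to 0.287) after cisplatin. Scaling by library totals ended the calls of Cenpe and Cenpa after oxaliplatin and of Nuf2 after cisplatin, and called Cenpe lower after cisplatin.

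Among the 10 spindle genes, 4 rose after oxaliplatin, and 3 rose and 1 fell after cisplatin (1 and 3 when scaled by library totals). That is 40% with each drug, beside 20.2% and 28.1% of all tested genes. Aspm, a spindle pole protein known for its role in brain size, read 1635 and 1835 normalised counts in the control libraries, 1761 and 1602 after oxaliplatin and 1222 and 1159 after cisplatin. The cisplatin libraries stood below all others, while oxaliplatin overlapped control. For Aspm the log2 fold change was -0.045 ± 0.089 (SE, adjusted p = 0.782) for oxaliplatin and -0.54 ± 0.091 (SE, adjusted p = 4.06e-08) for cisplatin, the largest fall of the list, and its levels after cisplatin were 31.4% lower than in control cells by the fitted fold change. Kif18a read 755 and 795 normalised counts in the control libraries, 997 and 1099 after oxaliplatin and 935 and 934 after cisplatin. Kif4, a chromosome-bound kinesin of the midzone, read 1556 and 1593 normalised counts in the control libraries, 1981 and 2117 after oxaliplatin and 1749.9 and 1894 after cisplatin. In both, oxaliplatin was highest, cisplatin intermediate and control lowest, without overlap. Kif18a rose by 0.43 ± 0.10 (SE, adjusted p = 0.000109) for oxaliplatin and 0.27 ± 0.10 (SE, adjusted p = 0.0239) for cisplatin, the largest rise of the list after oxaliplatin. Kif4 rose by 0.38 ± 0.076 (SE, adjusted p = 8.7e-06) for oxaliplatin and 0.21 ± 0.077 (SE, adjusted p = 0.0225) for cisplatin.

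Dlgap5, a microtubule-stabilising protein of the spindle also called HURP, read 2549.6 and 2512 normalised counts in the control libraries, 2779.6 and 2939 after oxaliplatin and 3120.4 and 3079.9 after cisplatin. Cisplatin was highest and control lowest, and Dlgap5 rose by 0.18 ± 0.059 (SE, adjusted p = 0.0148) for oxaliplatin and 0.29 ± 0.059 (SE, adjusted p = 7.09e-06) for cisplatin. Kif11, the kinesin that pushes spindle poles apart, read 4294 and 4547 normalised counts in the control libraries, 4641 and 4526 after oxaliplatin and 4129 and 3969 after cisplatin. Oxaliplatin overlapped control and cisplatin was lower than every other library, but Kif11 passed with neither drug, at 0.052 ± 0.053 (SE, adjusted p = 0.541) for oxaliplatin and -0.13 ± 0.053 (SE, adjusted p = 0.0547) for cisplatin. Nusap1, which bundles microtubules near chromosomes, was the other call after oxaliplatin at 0.18 ± 0.066 (SE, adjusted p = 0.0343), and the remaining Hmmr, Ckap2, Tpx2 and Kif2c passed with neither drug and lay between -0.049 and 0.15 for oxaliplatin and between -0.063 and 0.13 for cisplatin. Calls lost without single libraries were those of Kif18a (adjusted p up to 0.0783), Dlgap5 (up to 0.384) and Nusap1 (up to 0.48) after oxaliplatin, and of Kif4 (up to 0.359) and Kif18a (up to 0.227) after cisplatin. Scaling by library totals ended the calls of Nusap1 after oxaliplatin and of Kif4 and Kif18a after cisplatin, and called Kif11 and Nusap1 lower after cisplatin.

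All 6 midzone and cytokinesis genes rose after oxaliplatin, 3 rose after cisplatin and none fell. Of all tested genes 10.7% were called higher after oxaliplatin and 15.7% after cisplatin. Kif20a, the kinesin that brings the passenger complex to the midzone, read 6231 and 6296 normalised counts in the control libraries, 6951 and 6878 after oxaliplatin and 8959 and 8826 after cisplatin. The groups were apart from each other, with control lowest and cisplatin highest. Kif20a rose by 0.14 ± 0.039 (SE, adjusted p = 0.00217) for oxaliplatin and 0.51 ± 0.039 (SE, adjusted p = 6.07e-36) for cisplatin, 42% above control after cisplatin and the largest rise of the list with that drug. Prc1, the protein that crosslinks antiparallel midzone microtubules, read 2853 and 3024 normalised counts in the control libraries, 3629 and 3619 after oxaliplatin and 2776 and 2804 after cisplatin. Oxaliplatin stood well above the rest and cisplatin just below control, and for Prc1 the log2 fold change was 0.30 ± 0.056 (SE, adjusted p = 1.32e-06) for oxaliplatin and -0.075 ± 0.057 (SE, adjusted p = 0.343) for cisplatin.

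Ect2 and Anln act at the furrow, as the exchange factor that activates RhoA and as anillin, the scaffold of the contractile ring. Ect2 read 3489.8 and 3790.2 normalised counts in the control libraries, 4583 and 4542 after oxaliplatin and 3852 and 3905 after cisplatin. Anln read 5352 and 5615 normalised counts in the control libraries, 6578 and 6575 after oxaliplatin and 6066 and 6515 after cisplatin. For both, oxaliplatin was highest, cisplatin intermediate and control lowest. For Ect2 the log2 fold change was 0.33 ± 0.056 (SE, adjusted p = 1.31e-07) for oxaliplatin and 0.091 ± 0.056 (SE, adjusted p = 0.224) for cisplatin. Anln rose by 0.26 ± 0.051 (SE, adjusted p = 5.55e-06) for oxaliplatin and 0.20 ± 0.052 (SE, adjusted p = 0.000819) for cisplatin. Kif20b, a kinesin of late cytokinesis, read 2322 and 2451 normalised counts in the control libraries, 2743 and 2689 after oxaliplatin and 2615 and 2692 after cisplatin. The drug groups overlapped each other above control, and Kif20b rose by 0.19 ± 0.061 (SE, adjusted p = 0.0123) for oxaliplatin and 0.15 ± 0.061 (SE, adjusted p = 0.0422) for cisplatin. Kif23, the kinesin of centralspindlin, read 2437 and 2483 normalised counts in the control libraries, 2891 and 2843 after oxaliplatin and 2461 and 2496 after cisplatin, and only its rise after oxaliplatin passed, with log2 fold changes for Kif23 of 0.22 ± 0.057 (SE, adjusted p = 0.000942) for oxaliplatin and 0.011 ± 0.058 (SE, adjusted p = 0.919) for cisplatin. Without single libraries the calls of Kif20a (adjusted p up to 0.171), Kif20b (up to 0.26) and Kif23 (up to 0.126) after oxaliplatin and of Anln (up to 0.114) and Kif20b (up to 0.351) after cisplatin were lost. Scaling by library totals ended the cisplatin call of Kif20b.

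Of the genes of mitotic chromosomes, Top2a, which untangles sister DNA and lies at chr11:98992943-99024189, minus strand (GRCm38), was the 1 gene called in opposite directions. It read 13076 and 13747 normalised counts in the control libraries, 16189.9 and 16149.9 after oxaliplatin and 11839 and 12062 after cisplatin. The groups did not overlap, with oxaliplatin at the top and cisplatin at the bottom. Top2a changed by 0.27 ± 0.038 (SE, adjusted p = 4.49e-11) for oxaliplatin and -0.17 ± 0.038 (SE, adjusted p = 0.000111) for cisplatin, which is 20.6% above and 10.9% below control. Mki67, the coat protein of mitotic chromosomes used as the proliferation antigen Ki-67, read 10073 and 11321 normalised counts in the control libraries, 10269 and 9963 after oxaliplatin and 9529 and 10064 after cisplatin. Control replicate 2 stood highest, oxaliplatin overlapped control, and cisplatin lay just under it. Mki67 passed with neither drug, at -0.081 ± 0.058 (SE, adjusted p = 0.346) for oxaliplatin and -0.13 ± 0.058 (SE, adjusted p = 0.0814) for cisplatin, and scaling by library totals called it lower after cisplatin.

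**Figure D3:**
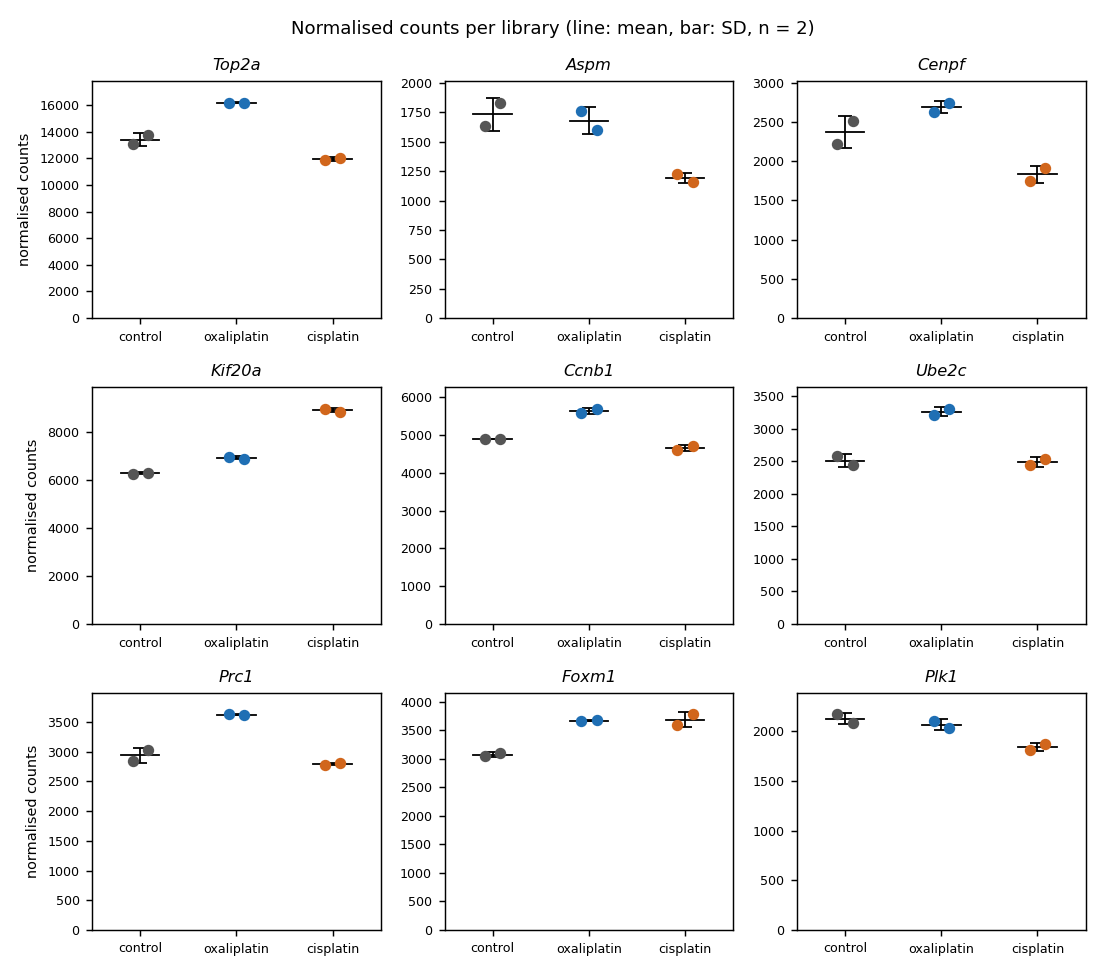
Normalised counts (y axis, from 0) in each of the 6 libraries for 9 of the genes, with the group mean as a line and the SD as a bar (n = 2 a group). Top2a, Ccnb1, Ube2c and Prc1 are highest after oxaliplatin, Aspm, Cenpf and Plk1 are lowest after cisplatin, Kif20a is highest after cisplatin at 8826 and 8959, and Foxm1 is above control after both drugs.

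At equal concentration and time, 18 of the 50 genes differed between the drugs, 16 higher and 2 lower after oxaliplatin than after cisplatin (DESeq2, adjusted p under 0.05). Of all tested genes 8.62% were called higher, 11.3% lower and 19.9% in either direction. Equal concentration need not mean equal effect on the cells. With 1 concentration of each drug, the kind of drug and the strength of its effect cannot be told apart. The median difference over the 50 genes was 0.083 on the log2 scale, beside -0.0033 over all tested genes. The oxaliplatin libraries lay above both cisplatin libraries for 29 genes and below them for 9, where 33.5% of all tested genes lay above, 34.5% below and 68.0% in either direction without overlap. Without cisplatin replicate 2, oxaliplatin replicate 1 or oxaliplatin replicate 2 the count was 11 each time, 10 higher and 1 lower, beside 9.03%, 8.02% and 8.58% of all tested genes.

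The widest differences toward oxaliplatin were those of Cenpf at 0.56 ± 0.08 (SE, adjusted p = 2.16e-10), Aspm at 0.50 ± 0.091 (SE, adjusted p = 8.87e-07) and Top2a at 0.44 ± 0.038 (SE, adjusted p = 4.28e-28). Ube2c followed at 0.39 ± 0.061 (SE, adjusted p = 6.39e-09), Prc1 at 0.38 ± 0.056 (SE, adjusted p = 8.11e-10) and Cdc25b at 0.36 ± 0.069 (SE, adjusted p = 3.43e-06). All of them read higher in both oxaliplatin libraries than in either cisplatin library. Ccnb1 differed by 0.27 ± 0.045 (SE, adjusted p = 3.53e-08) and Cdk1 by 0.14 ± 0.046 (SE, adjusted p = 0.016), so cyclin B1 and its kinase were both higher after oxaliplatin than after cisplatin although Cdk1 passed against control with neither. Also called higher were Nusap1, Cenpe, Bub3, Ect2, Kif23, Hmmr, Aurka and Kif11, from 0.18 (Kif11) to 0.32 (Nusap1). Toward cisplatin the calls were Kif20a at -0.36 ± 0.039 (SE, adjusted p = 7.91e-19) and Birc5 at -0.15 ± 0.055 (SE, adjusted p = 0.0313), and that of Birc5 was lost under 12 of 16 alternatives, scaling by library totals among them (adjusted p up to 0.337). Without single libraries the calls of Cdk1 (adjusted p up to 0.337), Aurka (up to 0.213), Kif11 (up to 0.207), Hmmr (up to 0.26), Kif23 (up to 0.163), Bub3 (up to 0.0532), Nusap1 (up to 0.051) and Ect2 (up to 0.0515) were lost.

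For the other 32 genes a difference between the drugs was not shown, and the 95% intervals give its possible size. They stayed within 0.3 on the log2 scale in either direction for 24 of the 32, and their outermost bounds were -0.40 for Pttg1 and 0.35 for Kif18a. For Foxm1 the interval ran from -0.11 to 0.10, for Bub1 from -0.15 to 0.13 and for Anln from -0.036 to 0.16, each around a gene that rose with both drugs. Plk1, at 0.17 ± 0.067 (SE, adjusted p = 0.0507), and Sgo1, at -0.20 ± 0.079 (SE, adjusted p = 0.0518), narrowly missed the threshold on opposite sides of 0. Against control, uncalled genes had intervals within 0.3 in either direction for 22 of 27 after oxaliplatin and 26 of 29 after cisplatin.

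**Figure D4:**
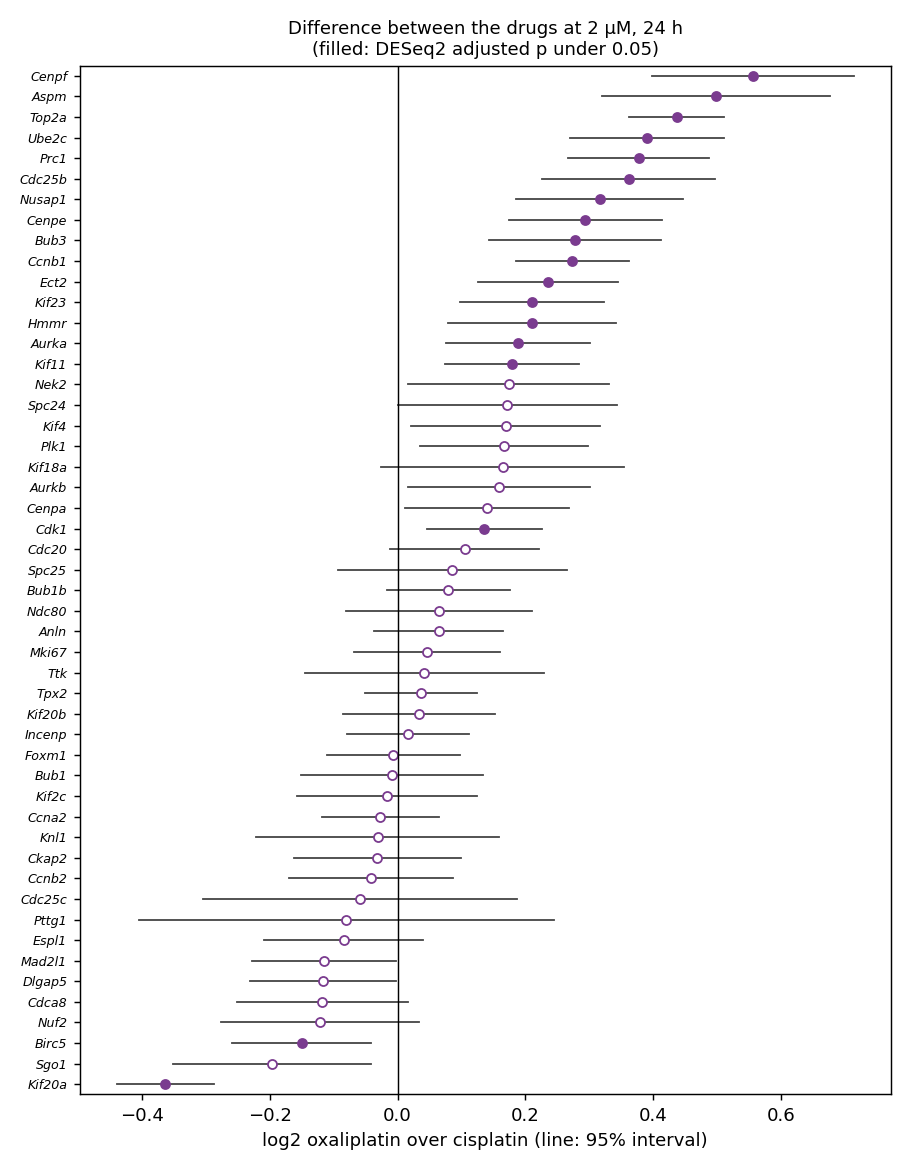
Log2 ratio of oxaliplatin over cisplatin (x axis) for each of the 50 genes, ordered by value, with the 95% interval as a line and filled points for DESeq2 adjusted p under 0.05. The 16 filled points to the right of 0 run from Cdk1 to Cenpf, and Birc5 and Kif20a are the 2 to the left.

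Counted by library, both oxaliplatin libraries were above the other 4 for 23 of the 50 genes and below them for none, where this held for 14.6% and 16.1% of all tested genes. Both cisplatin libraries were above the other 4 for 9 genes (Ccna2, Mad2l1, Espl1, Sgo1, Nuf2, Cdca8, Birc5, Dlgap5 and Kif20a) and below them for 14, among them Ccnb1, Cdk1, Plk1, Cdc20, Bub1b, Aurkb, Cenpf, Aspm and Top2a, beside 21.5% and 20.8% of all tested genes. Both control libraries were below the other 4 for 20 genes and above them for 4 (Ccnb2, Cdc25c, Aurkb and Incenp), beside 20.4% and 20.0%. Summed over the 6 genes of midzone and cytokinesis, normalised counts were 22685 and 23659 in control, 27375 and 27146 after oxaliplatin and 26728 and 27238 after cisplatin. For the 10 genes of mitotic entry the sums were 28106 and 27997, 30671 and 30962, and 28228 and 28461. The near-equal midzone sums after the drugs hold unequal genes, since between the drugs 4 of the 6 were called, Prc1, Ect2 and Kif23 higher and the abundant Kif20a lower after oxaliplatin, while 4 of the 10 genes of mitotic entry were called, all higher. Between the drugs 19.9% of all tested genes were called.

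Other genes of the same machinery were counted by lists. With oxaliplatin and cisplatin, 62.5% and 37.5% of condensin genes were called, 29.4% and 52.9% of APC/C genes and 27.6% and 55.2% of other kinetochore genes. Of other spindle and cytokinesis genes 20.6% and 32.4% were called, near the 20.2% and 28.1% of all tested genes. Of 8 condensin subunits, which compact mitotic chromosomes, 5 rose after oxaliplatin and 3 after cisplatin and none fell, with Smc2 at 0.21 and 0.22, Smc4 at 0.17 and 0.15 and Ncapg2 at 0.15 (not called) and 0.26. Of 17 APC/C subunits and regulators, 3 rose and 2 fell after oxaliplatin and 5 rose and 4 fell after cisplatin (2 and 5 when scaled by library totals). There Ube2s, the chain-elongating enzyme that works beside Ube2c, rose by 0.26 and 0.15, Cdc16 was lower at -0.15 and -0.23, Anapc2 fell with oxaliplatin (-0.37, and -0.072 uncalled with cisplatin) and Anapc11 rose with cisplatin (0.39, and 0.068 uncalled with oxaliplatin). Of 29 other kinetochore genes, 6 rose and 2 fell after oxaliplatin and 13 rose and 3 fell after cisplatin, with Nsl1 at 0.57 and 0.50, Hjurp, the chaperone of Cenpa, at -0.15 and -0.37 and Zwint at -0.25 and 0.065 (not called). Of 34 other spindle and cytokinesis genes, 7 rose and none fell after oxaliplatin and 9 rose and 2 fell after cisplatin (6 and 3 when scaled by library totals), with Cep55, a protein of abscission, at 0.11 (not called) and 0.55, Ckap5 at 0.28 and -0.06 (not called), Trip13 at 0.24 and 0.42 and Cdca2 at 0.30 and 0.19. All of these are DESeq2 log2 fold changes, oxaliplatin first.

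Among 15 regulators of these promoters (MuvB, DREAM and NF-Y), 4 rose and 1 fell after oxaliplatin (2 and 1 when scaled by library totals) and 6 rose and 2 fell after cisplatin. That made 33.3% and 53.3% called, beside 20.2% and 28.1% of all tested genes. Mybl2, the B-Myb that turns MuvB into an activator, read 1215 and 1143 normalised counts in the control libraries, 1557 and 1571 after oxaliplatin and 1679 and 1810.1 after cisplatin. Control was lowest and cisplatin highest, and Mybl2 rose by 0.41 ± 0.08 (SE, adjusted p = 6.17e-06) for oxaliplatin and 0.57 ± 0.08 (SE, adjusted p = 4.9e-11) for cisplatin, with Tfdp1 at 0.11 (not called) and 0.27 and Rbbp4 at 0.15 and 0.13. Of 17 G2 brakes and checkpoint genes tested, 6 rose and 4 fell after oxaliplatin (58.8% called) and 7 rose and 2 fell after cisplatin (52.9% called). Cdkn1a, the p21 inhibitor, read 120.4 and 139.9 normalised counts in the control libraries, 102 and 111 after oxaliplatin and 254 and 263 after cisplatin. Gadd45a, a p53 target that restrains Cdk1, read 109 and 99.5 normalised counts in the control libraries, 97.5 and 78.8 after oxaliplatin and 246 and 272 after cisplatin. The cisplatin libraries were far above the rest for both, and the oxaliplatin libraries were below control. For Cdkn1a the log2 fold change was -0.29 ± 0.23 (SE, adjusted p = 0.384) for oxaliplatin and 0.99 ± 0.21 (SE, adjusted p = 3.44e-05) for cisplatin. For Gadd45a it was -0.24 ± 0.25 (SE, adjusted p = 0.55) for oxaliplatin and 1.31 ± 0.23 (SE, adjusted p = 2.26e-07) for cisplatin. Gadd45b and Gadd45g rose with both drugs, at 0.62 and 0.86 for oxaliplatin and 0.68 and 0.75 for cisplatin. Wee1, the kinase that inhibits Cdk1, passed with neither drug (0.11 ± 0.13 and -0.21 ± 0.13).

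Of 34 G1/S and replication genes, 12 rose and 2 fell after oxaliplatin, while 30 rose and none fell after cisplatin, with a median log2 fold change of 0.11 and 0.33. Called were 41.2% and 88.2% of them, beside 20.2% and 28.1% of all tested genes. Mcm2, Mcm3 and Rrm2 rose with both drugs, by 0.28, 0.32 and 0.21 for oxaliplatin and 0.39, 0.47 and 0.60 for cisplatin. Between the drugs 21 of these 34 genes were lower and none higher after oxaliplatin, whereas the 50 mitosis and G2/M genes gave 16 higher and 2 lower. In that comparison 8.62% of all tested genes were called higher and 11.3% lower. These changes in G1/S genes ran beside those of the mitotic genes in the same libraries, and their part in them was not tested.

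**Figure D5:**
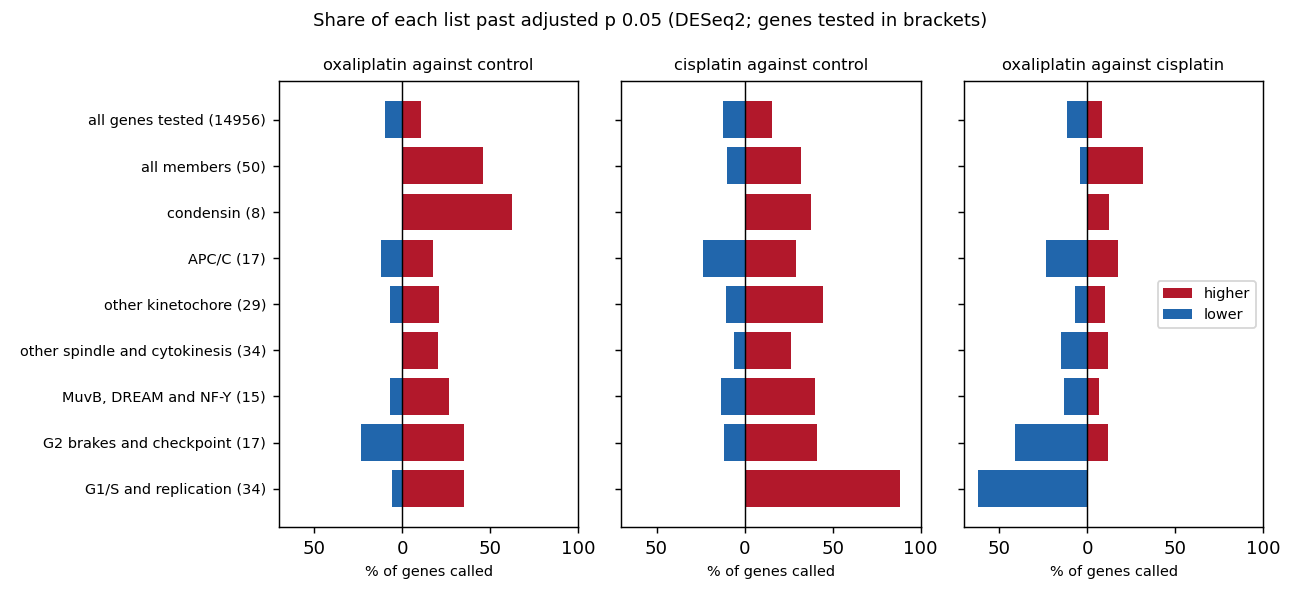
Percent of each list called (x axis, higher in red to the right and lower in blue to the left) in the 3 comparisons, with the number of genes tested in brackets; all members are the 50 mitosis and G2/M genes. In the first panel the 50 genes have a bar to the right and none to the left, and in the last panel the G1/S list lies wholly to the left, with 61.8% called lower.

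The 50 genes lie on 18 chromosomes, 10 of them on chromosome 2. Exons of 15 overlap exons of another annotated gene, for 13 of them on the opposite strand, and in 7 cases the partner averaged 100 or more counts. The largest such overlap is 1271 bases between Kif20a and Cdc23, which averaged 2331 counts beside 7395 for Kif20a. Cdc23 passed with neither drug, at 0.10 ± 0.062 for oxaliplatin and 0.037 ± 0.063 for cisplatin. The other partners of this abundance overlap Ccna2, Cdc20, Cdca8, Kif4, Kif18a and Nusap1. The libraries were made with a stranded kit, but the strand setting used in counting is not given in the sources used here, so the values of these 7 genes may include reads of the partner. Fold change and exonic length had Spearman correlations of 0.21 (oxaliplatin), 0.016 (cisplatin) and 0.17 (between the drugs) over the 50 genes, beside -0.034, -0.19 and 0.20 over 10726 genes averaging at least 100 counts. These are descriptions across genes measured in the same libraries. With the trend on exonic length removed, the called counts were 26, 23 and 22 (21.7%, 28.2% and 19.9% of all tested genes), and with that on gene body length removed they were 26, 21 and 23 (21.5%, 27.8% and 19.3%), with cisplatin at 13 higher and 8 lower in the latter.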

How the data were processed

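The authors deposited 1 table of expected counts per gene for 6 poly(A) RNA libraries, not normalised and with whole and fractional values; per the submitters' processing notes it was made with STAR 2.5.3a, RSEM 1.3.0 and GRCm38.p6, whereas the study's methods for cultured cells name featureCounts and GENCODE vm12, and which release the RSEM table used is not given in the sources used here. Identifiers without version were matched to GENCODE M21 symbols (54409 of 54446). Expected counts were rounded, genes reaching 10 counts in 2 or more libraries (14956) went into the fit, and DESeq2 1.42.0 in R 4.3.3 was fitted on all 6 libraries with group as the only term. Wald tests were two-sided, p-values were adjusted by Benjamini-Hochberg over all genes, the threshold was 0.05, and fold changes are unshrunken. Independent filtering left 1740 to 2900 genes without an adjusted p, which stay uncalled. Normalised counts are counts divided by the DESeq2 size factor.

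The 50 genes and all other lists were chosen with earlier results of these data known. Genes named with library values were a set of core regulators, the 3 genes of each role with the smallest adjusted p for each drug, genes called in opposite directions and the 8 with the smallest adjusted p between the drugs, plus, in each other list, the 2 with the smallest adjusted p for each drug and 4 regulators; other genes are named where few were called, after their values were seen. Of 11 epithelial and prostate markers 7 were tested, of 8 fibroblast markers 8, of 7 immune markers 1 and of 4 endothelial markers 1. The values of some markers are not reported here.

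The scripts were tested on simulated counts with planted changes. Alternatives were edgeR 4.0.16 (quasi-likelihood), TMM and library-total scaling, other filters, a minimum fold change, fits on 4 libraries, a replicate block, each library left out, and removal of trends with exonic or gene body length, the latter pair added after seeing the data. A count of 0 to 3 is not distinguishable from absence at these depths, which covers counting error only.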

Additional observations from a re-analysis of the deposited data

How the results depend on the processing

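No called gene changed direction in any of 2400 comparisons of a gene's value with 1 of 16 alternative fits (all but the minimum fold change), of which 2147 stayed on the same side of the threshold, 190 lost a call and 63 gained one. With a minimum absolute log2 fold change of 1 the counts of called genes were 0 for oxaliplatin against control, 0 for cisplatin against control and 0 between the drugs, beside 0.475%, 1.62% and 0.441% of all tested genes. With a replicate block they were 17, 12 and 15, beside 13.1%, 18.9% and 12.4% of all tested genes. Deviations of same-numbered libraries correlated at 0.0101 (control and oxaliplatin), 0.0375 (control and cisplatin) and -0.0128 (the drugs) over all tested genes and at 0.164, -0.0319 and -0.0499 over genes averaging 100 or more counts, not above 0.1 for every pair, so the numbers were not read as pairs. Leaving out 1 library, which leaves a group with a lone library assumed to vary like the others, gave 10 to 17 called genes for oxaliplatin against control, 9 to 13 for cisplatin against control and 11 to 17 between the drugs, and fewer libraries also lowered the share of all genes called.

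The medians of 0.151, 0.0243 and 0.0826 moved to 0.137, -0.0237 and 0.117 when scaled by library totals, which shifted the median of all genes by -0.0138, -0.048 and 0.0342, to 0.171, 0.0452 and 0.0966 with the trend on exonic length removed and to 0.166, 0.00741 and 0.0999 with the trend on gene body length removed. Leaving out 1 library gave medians of 0.134 to 0.152, 0.0114 to 0.0481 and 0.0659 to 0.108. Scaling by library totals moves all genes of a comparison by about the same amount, and the cause of the other shifts was not tested. Under the same 16 alternatives, which leave out the minimum fold change that ended every call, calls held throughout for 10 of 23 genes with oxaliplatin (Aurka, Nek2, Foxm1, Bub3, Ube2c, Kif4, Prc1, Anln, Ect2 and Top2a), 9 of 21 with cisplatin (Foxm1, Sgo1, Cenpf, Cdca8, Birc5, Dlgap5, Aspm, Kif20a and Top2a) and 9 of 18 between the drugs (Ccnb1, Cdc25b, Ube2c, Cenpe, Cenpf, Aspm, Kif20a, Prc1 and Top2a). With 2 libraries a group, standard errors of 0.038 to 0.17 limit what could be called.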
